A study of Mus musculus with 8 samples.

Results

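The markers described here are 10 genes used to recognise the cells of small blood vessels in the LG of mice. Pecam1, Cdh5, Kdr, Flt1, Tek, Vwf, Emcn and Egfl7 mark endothelial cells, which line the vessel, and Rgs5 and Pdgfrb mark pericytes, which wrap the capillary wall from outside. They were taken by symbol from a table of 24552 genes, and all 10 were listed and were counted often enough to be tested. No marker passed the thresholds for a change with calorie restriction. The largest differences were in Emcn, which was 2.01-fold higher in CR mice (adjusted p = 0.266 by edgeR), and in Cdh5 and Vwf. Emcn was the 1 marker whose diet groups did not overlap, and the groups did not overlap for 9.79% of all genes tested.

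The LG secretes the watery part of the tear film, and it draws that water and its salts from a dense capillary bed around the acini. Endothelial cells hold together through VE-cadherin (Cdh5) and PECAM-1 (Pecam1), they receive growth and survival signals from VEGF through VEGFR2 (Kdr), and VEGFR1 (Flt1) binds the same ligand with high affinity but signals weakly. Angiopoietins act on the receptor Tie2 (Tek), and endothelial PDGF-B recruits pericytes, which carry PDGF receptor beta (Pdgfrb).

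Exorbital LGs were taken from female C57BL/6J mice aged 10 to 11 months. In 4 mice the diet was ad libitum (AL), and 4 mice had been under 40% calorie restriction (CR) for 4 months. The study describes separate cohorts at different sites, and the sources used here do not say which of them gave these libraries. In the cohort kept at Baylor College of Medicine, the CR chow held 40% more vitamins and micronutrients than the AL chow. A fixed evening feeding time is also reported for CR mice. The whole gland was lysed without sorting, so vessel RNA was a small share of each library, in which the 10 markers together held between 409 and 610 counts. Libraries were made with a 3′ kit that yields reads from the end of the transcript, and values are counts per gene. Levels are given as CPM, the counts of a gene scaled to a common library size, and they are compared here between libraries for the same gene and not between genes. In bulk RNA, fewer cells of a type and less RNA per cell cannot be told apart.

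Libraries held between 12051881 and 22156511 counts, and the 10 most counted genes of a library took between 62.37% and 73.44% of them. A level of 3 counts, taken as the floor, was between 0.152 and 0.231 CPM. CR 4 stood apart from the other CR libraries in the summed level of 7 parotid acinar transcripts, at 18000 CPM against 184000 to 232000 CPM, while the AL libraries lay between 240 and 23600 CPM. Most of this sum was Bpifa2 and Amy1, at 13700 and 3280 CPM in CR 4. For Prb1, Prh1 and Prp2 the order differed, and CR 4 was at 419, 361 and 62 CPM. These values were above those of CR 3 (233, 217 and 20.7 CPM) and of every AL library (at most 90.5, 9.25 and 1.23 CPM). Across all genes tested, edgeR called 134 higher and 88 lower in CR, or 1.98% of 11211 genes, where a call needs an adjusted p under 0.05 together with a 1.5-fold change or more. With the replicate number as a block the counts were 388 and 312, and without CR 4 they were 453 and 247.

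The presence of vessel cells was checked with wider marker sets, which cannot tell the LG from another tissue with vessels. Of 11 endothelial markers, 8 were over the floor in every library, and of 6 pericyte markers 4 were. The tight-junction gene Cldn5 had between 0 and 6 counts per library, the pericyte proteoglycan gene Cspg4 between 0 and 11, and Higd1b, a further pericyte marker, at most 1. Vessel transcripts were therefore present but shallow, and the markers themselves had between 0 and 168 counts per library. For each marker, the variance within a diet group was between 2.3 (Emcn) and 15 (Egfl7) times what counting error alone gives. By these point estimates, from 4 libraries per diet, counting error was the smaller part of the spread between libraries. This is least certain for the markers with the lowest ratios.

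**Figure D1:**
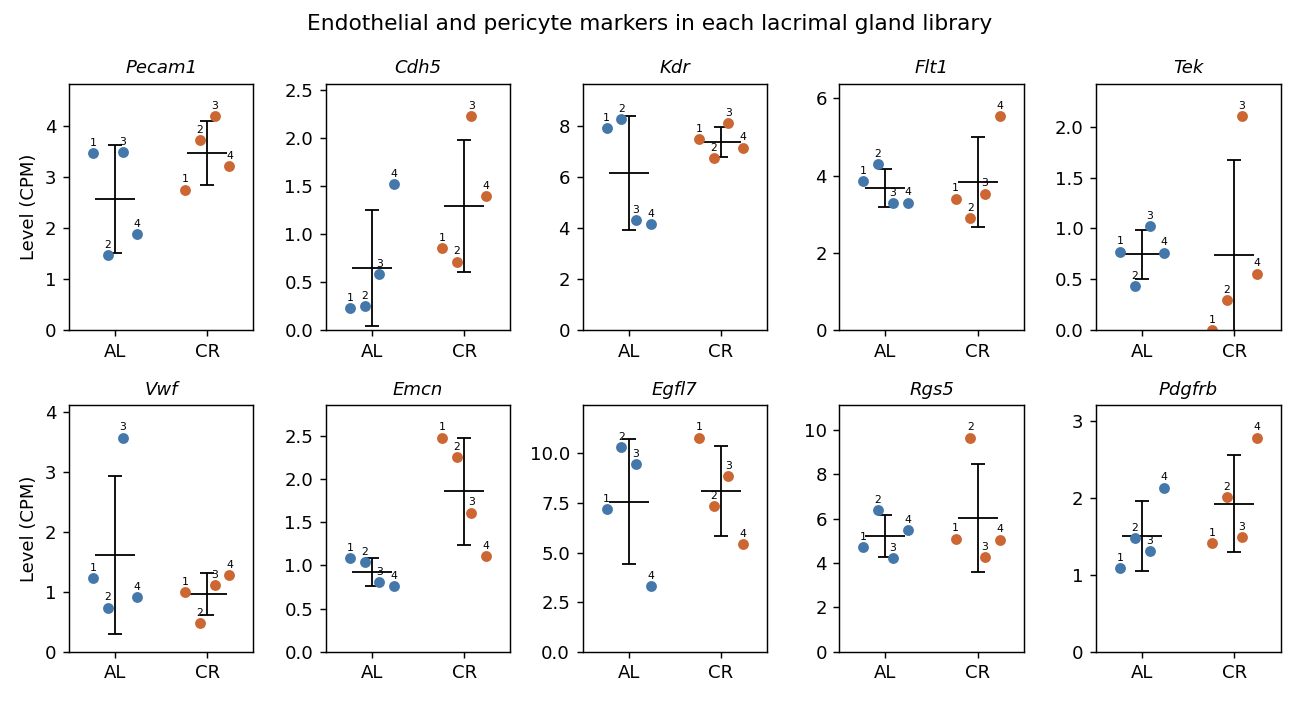
Level of each of the 10 markers in CPM, on axes that start at 0, for the 4 AL and 4 CR libraries. Points are libraries with their replicate number, the long line is the group mean and the bars are the SD, cut at 0 for Tek; Emcn is the marker in which the groups do not overlap.

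Of the 10 markers, 0 were called in either direction, beside 1.20% of all genes tested called higher and 0.785% called lower in CR. At an unadjusted p under 0.05 there was 1, Emcn, beside 16.7% of all genes, and with the replicate number as a block there were 0. Emcn was the 1 marker without overlap between diets, beside 9.79% of all genes. The median log2 fold change of the markers, CR minus AL, was 0.24, and over all genes it was 0.011. Their adjusted p-values by edgeR lay between 0.266 and 1. The 95% interval lay above a 1.5-fold fall for 7 markers, below a 1.5-fold rise for 1, Vwf, and within a 2-fold change in either direction for 4, namely Kdr, Flt1, Egfl7 and Rgs5.

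Emcn encodes endomucin, a sialomucin on the surface of capillary and venous endothelium. Its level was 1.08, 1.04, 0.802 and 0.761 CPM in AL 1 to AL 4, and 2.48, 2.25, 1.61 and 1.11 CPM in CR 1 to CR 4. All 4 CR libraries were above all 4 AL libraries, although AL 1 and CR 4 were close to each other. The group means were 0.921 ± 0.163 and 1.86 ± 0.621 CPM (SD, n = 4 each), from 11 to 38 counts per library. CR minus AL, this is a log2 fold change of 1.01 with SE 0.437 and a 95% interval from 0.06 to 1.96. It did not pass the correction over all genes (p = 0.0392 and adjusted p = 0.266 by edgeR), and an exact two-sided permutation test gave p = 0.0286, the smallest that 4 against 4 allow. With the replicate number as a block the log2 fold change was 0.96 and the unadjusted p was 0.0627 (adjusted p = 0.26 by edgeR). The unadjusted p was also above 0.05 without the filter on low counts (0.0583) and without AL 2, AL 3, AL 4, CR 1, CR 2 or CR 3 (0.0501 to 0.114). Without CR 4 the log2 fold change was 1.19 (adjusted p = 0.174 by edgeR), and it was 0.01 when a parotid score entered the model (adjusted p = 0.999). That score, the mean log2 level of the parotid transcripts, was between 2.32 and 6.40 in AL and between 7.98 and 11.3 in CR, so that the score and the diet cannot be told apart well.

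Pecam1 encodes PECAM-1, an adhesion molecule of endothelial junctions that platelets and leukocytes carry as well. Its level was 3.47, 1.47, 3.50 and 1.88 CPM in AL 1 to AL 4, and 2.76, 3.73, 4.21 and 3.22 CPM in CR 1 to CR 4. AL 2 and AL 4 were below every CR library, and AL 1 and AL 3 lay among them. On the log2 scale CR minus AL was 0.44 with SE 0.36 (95% interval from -0.34 to 1.23), and the adjusted p was 0.603 by edgeR. By limma voom it was 0.79, with an unadjusted p of 0.0425 and an adjusted p of 0.226.

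Cdh5 encodes VE-cadherin, the cadherin of endothelial adherens junctions. Its level was 0.231, 0.245, 0.583 and 1.52 CPM in AL 1 to AL 4, and 0.849, 0.711, 2.23 and 1.39 CPM in CR 1 to CR 4. AL 1, AL 2 and AL 3 were below every CR library, and AL 4 was higher than CR 1, CR 2 and CR 4. AL 1 was at the floor with 3 counts and AL 2 had 4. For Cdh5 the log2 fold change was 0.96 with SE 0.673 (95% interval from -0.50 to 2.42), and the adjusted p was 0.524 by edgeR. Without AL 4 it was 1.85 (unadjusted p = 0.0223, adjusted p = 0.205 by edgeR), and without CR 3 it was 0.58. When the parotid score described above entered the model, it was 3.91 (unadjusted p = 0.00536, adjusted p = 0.38 by edgeR).

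Vwf encodes von Willebrand factor, a clotting protein stored by endothelial cells and megakaryocytes. It was the marker with the lowest fold change. Its level was 1.23, 0.736, 3.57 and 0.913 CPM in AL 1 to AL 4, and 0.990, 0.474, 1.11 and 1.28 CPM in CR 1 to CR 4. AL 3 stood above all other libraries, and the remaining AL libraries lay within the CR range. For Vwf the log2 fold change was -0.73 with SE 0.588 (95% interval from -2.01 to 0.55) and an adjusted p of 0.599 by edgeR, and without AL 3 it was 0.01. AL 3 also held the highest summed level of 14 leukocyte markers, 274 CPM against 85.4 to 122 CPM in the other AL libraries. The part of these cells in the Vwf value was not tested. The platelet genes Gp1ba, Gp1bb, Gp9 and Ppbp had at most 2 counts in any library, while Pf4, which macrophages can also make, had between 103 and 168. Itga2b, an integrin of platelets and megakaryocytes, had between 75 and 250 counts, at 11.1 ± 1.44 CPM in AL and 7.56 ± 4.26 CPM in CR (log2 fold change -0.55, adjusted p = 0.427 by edgeR). Under the replicate block it had -0.68 (unadjusted p = 0.0343, adjusted p = 0.19). The 6 platelet genes summed to 17.2 to 24.4 CPM in AL and 12.6 to 20.8 CPM in CR.

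Egfl7 encodes a protein secreted by endothelial cells, and its transcript hosts miR-126. Its level was 7.17, 10.3, 9.47 and 3.3 CPM in AL 1 to AL 4, and 10.8, 7.34, 8.85 and 5.44 CPM in CR 1 to CR 4. Replicate 4 was the lowest of both diets, and the groups overlapped. For Egfl7 the log2 fold change was 0.10 with SE 0.339 (95% interval from -0.64 to 0.84), and the adjusted p was 0.93 by edgeR. The sign turned to -0.16 without AL 4 and to -0.06 without CR 1. Exons of Egfl7 overlap those of Gm20532 and Mir126a on its own strand and of Agpat2 and Mir126b on the other. How the counting treated strand is not given in the sources used here, so reads from these genes may not be fully separated.

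The VEGF receptor genes did not pass the test for a difference between the diets. Kdr was at 7.94, 8.28, 4.30 and 4.16 CPM in AL 1 to AL 4, and at 7.50, 6.75, 8.11 and 7.16 CPM in CR 1 to CR 4. AL 3 and AL 4 were below the CR range, AL 1 was within it and AL 2 above it, and the CR range was narrow, with an SD of 0.575 CPM in CR and 2.24 CPM in AL. The log2 fold change of Kdr was 0.26 with SE 0.275 (95% interval from -0.34 to 0.86), and the adjusted p was 0.712 by edgeR. Flt1 was at 3.85, 4.29, 3.28 and 3.30 CPM in AL 1 to AL 4, and at 3.40, 2.90, 3.53 and 5.55 CPM in CR 1 to CR 4. CR 4 was the highest library for Flt1, and the other CR libraries lay near the AL values. Its log2 fold change was 0.07 with SE 0.297 (95% interval from -0.58 to 0.71) and an adjusted p of 0.95 by edgeR, and without CR 4 it was -0.17.

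Tek encodes Tie2, the angiopoietin receptor, and was the marker with the widest interval. Its level was 0.771, 0.429, 1.02 and 0.761 CPM in AL 1 to AL 4, and 0, 0.296, 2.11 and 0.555 CPM in CR 1 to CR 4. CR 1 had 0 counts, which allows up to 0.212 CPM, and CR 3 with 34 counts was above every other library, so the CR values enclosed all the AL values. The group means were 0.745 ± 0.242 CPM in AL and 0.739 ± 0.939 CPM in CR (SD, n = 4 each), and the 95% interval of the log2 fold change ran from -1.89 to 1.89. Without CR 3 the log2 fold change was -1.32 (adjusted p = 0.569 by edgeR). A change in Tek was not detectable at this depth and spread.

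Promoter sequences are shown for the VEGF receptor genes and for Emcn, the marker whose diet groups did not overlap. They are the 250 bases before the RefSeq transcription start on GRCm38.p6, on the strand of the gene, at chr5:75978456-75978705 (minus strand) for Kdr, chr5:147726012-147726261 (minus strand) for Flt1 and chr3:137340828-137341077 (plus strand) for Emcn. Capitals mark GGAA on either strand, the core that ETS factors bind, which many endothelial promoters contain.
Kdr: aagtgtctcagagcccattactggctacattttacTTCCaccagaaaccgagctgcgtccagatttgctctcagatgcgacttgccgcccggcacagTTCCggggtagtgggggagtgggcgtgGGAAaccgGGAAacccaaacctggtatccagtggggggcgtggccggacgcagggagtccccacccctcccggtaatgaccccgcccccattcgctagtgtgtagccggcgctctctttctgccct
Flt1: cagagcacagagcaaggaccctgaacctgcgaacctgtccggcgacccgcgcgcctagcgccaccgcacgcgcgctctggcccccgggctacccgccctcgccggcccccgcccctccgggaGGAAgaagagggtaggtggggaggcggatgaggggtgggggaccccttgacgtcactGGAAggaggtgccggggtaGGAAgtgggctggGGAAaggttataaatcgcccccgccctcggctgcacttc
Emcn: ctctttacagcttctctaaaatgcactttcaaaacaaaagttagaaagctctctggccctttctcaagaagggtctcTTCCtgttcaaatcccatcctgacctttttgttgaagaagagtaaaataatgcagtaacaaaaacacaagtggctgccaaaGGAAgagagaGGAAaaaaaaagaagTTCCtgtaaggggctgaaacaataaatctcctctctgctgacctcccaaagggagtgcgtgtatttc
Each of these promoters holds GGAA or its reverse complement TTCC at 4 places. GC content was 61.6% for Kdr, 70.4% for Flt1 and 40.8% for Emcn. The core is present in 93.4% of 32851 promoter windows of the same length, so its presence does not set these genes apart. The longer form CCGGAA, which contains GGAA, was found in Kdr and is present in 12.0% of the windows. GATAA, the core of GATA sites, was in none of these 3 promoters and is present in 22.6% of the windows. Of the 10 markers, 6 had a promoter in the table used.

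In GENCODE vM21 on GRCm38 (mm10), Kdr spans chr5:75932827-75978458 and Flt1 spans chr5:147561604-147726011, both on the minus strand. Emcn spans chr3:137341067-137432185, Cdh5 chr8:104101625-104144511, Tek chr4:94739289-94874976 and Vwf chr6:125546774-125686679 on the plus strand. Pecam1 spans chr11:106654217-106750628 on the minus strand, and Egfl7 spans chr2:26580014-26593120 and Rgs5 chr1:169655501-169695813 on the plus strand. Apart from Egfl7, no marker shares exon bases with another annotated gene.

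The pericyte markers did not pass the test either. Rgs5, a regulator of G-protein signalling that is abundant in pericytes, was at 4.70, 6.38, 4.23 and 5.48 CPM in AL 1 to AL 4, and at 5.09, 9.65, 4.27 and 5.05 CPM in CR 1 to CR 4. CR 2 was above all other libraries, and the other CR libraries lay within the AL range. The log2 fold change of Rgs5 was 0.21 with SE 0.3 (95% interval from -0.44 to 0.86) and an adjusted p of 0.802 by edgeR, and without CR 2 it was -0.11. Pdgfrb was at 1.08, 1.47, 1.31 and 2.13 CPM in AL 1 to AL 4, and at 1.41, 2.01, 1.49 and 2.78 CPM in CR 1 to CR 4. Replicate 4 was the highest of both diets, and the groups overlapped. The log2 fold change of Pdgfrb was 0.35 with SE 0.414 (95% interval from -0.55 to 1.25), the adjusted p was 0.744 by edgeR, and without CR 4 it was 0.12. Between libraries of the same replicate number Pdgfrb was higher in CR in all 4 pairs, and with that number as a block the adjusted p was 0.685. Fibroblasts carry Pdgfrb too, and the part of these cells in its value was not tested.

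**Figure D2:**
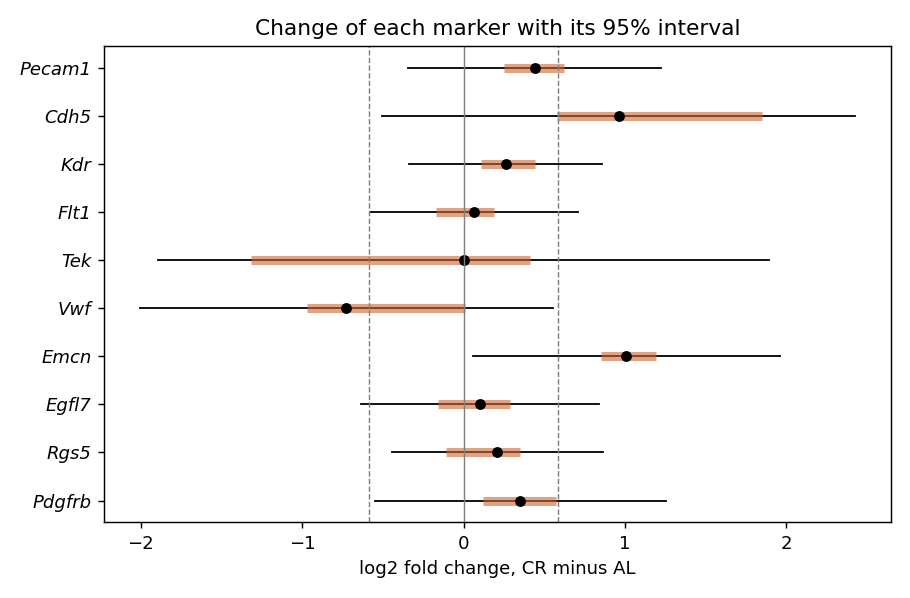
Log2 fold change, CR minus AL, of each marker (point) with its 95% interval (thin line) and the range of the values when each library is left out in turn (thick line). The dashed lines mark a 1.5-fold change; the interval of Emcn, from 0.06 to 1.96, is the only one that does not hold 0.

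The 8 endothelial markers summed to 25.7, 26.8, 26.5 and 16.6 CPM in AL 1 to AL 4, and to 28.7, 24.5, 31.8 and 25.7 CPM in CR 1 to CR 4. AL 4 was below all other libraries, and the other AL libraries lay within the CR range. The 2 pericyte markers summed to 5.78, 7.85, 5.54 and 7.61 CPM in AL, and to 6.51, 11.7, 5.76 and 7.83 CPM in CR. All 10 markers summed to 31.5, 34.7, 32.1 and 24.2 CPM in AL 1 to AL 4, and to 35.2, 36.1, 37.5 and 33.5 CPM in CR 1 to CR 4. This sum was higher in CR in all 4 pairs of the same replicate number, and AL 2 was the AL library within the CR range; no test was made. The endothelial and pericyte sums overlapped between the diets, and the pericyte sum was also higher in CR in all 4 pairs.

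Ratios between markers within a library hardly depend on the scaling of the library size. The log2 ratio of Flt1 to Kdr, the weak and the strong VEGF receptor, was -1.04, -0.94, -0.39 and -0.33 in AL 1 to AL 4, and -1.14, -1.21, -1.19 and -0.37 in CR 1 to CR 4. CR 4 lay with AL 3 and AL 4, and the other CR libraries were below every AL library. The means differed by -0.30, with p = 0.2 by the exact two-sided permutation test and 0.305 after adjustment over the 4 ratios. The ratio was lower in CR in all 4 pairs of the same replicate number, for which an exact sign-flip test gave p = 0.125, the smallest that 4 pairs allow (adjusted p = 0.25). The log2 ratio of Vwf to Cdh5 was 2.27, 1.47, 2.55 and -0.72 in AL 1 to AL 4, and 0.22, -0.55, -0.98 and -0.12 in CR 1 to CR 4. AL 1, AL 2 and AL 3 were above every CR library, whereas AL 4 lay within the CR range. Cdh5 had 3 counts in AL 1 and 4 in AL 2, at or near the floor, so these ratios are uncertain. The difference was -1.75 (exact permutation p = 0.114, adjusted p = 0.305). Without AL 4, the AL library that overlapped CR, it was -2.45 (exact permutation p = 0.0286, adjusted p = 0.114). With each library left out in turn, the difference ran from -2.45 to -1.37. Over all 10 alternatives for this ratio, the adjusted p by exact tests was between 0.114 and 0.648.

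The ratios that involve pericytes overlapped as well. The log2 ratio of Rgs5 to Pdgfrb was between 1.35 and 2.09 in AL and between 0.86 and 2.24 in CR, a difference of -0.19 (exact permutation p = 0.6, adjusted p = 0.6). The log2 ratio of Pdgfrb to Cdh5, a single pericyte marker against a single endothelial marker, was 2.08, 2.44, 1.13 and 0.48 in AL 1 to AL 4, and 0.72, 1.46, -0.58 and 0.98 in CR 1 to CR 4. AL 1 and AL 2, in which Cdh5 had 3 and 4 counts, were above every CR library. The difference of -0.89 did not pass the test (exact permutation p = 0.229, adjusted p = 0.305).

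**Figure D3:**
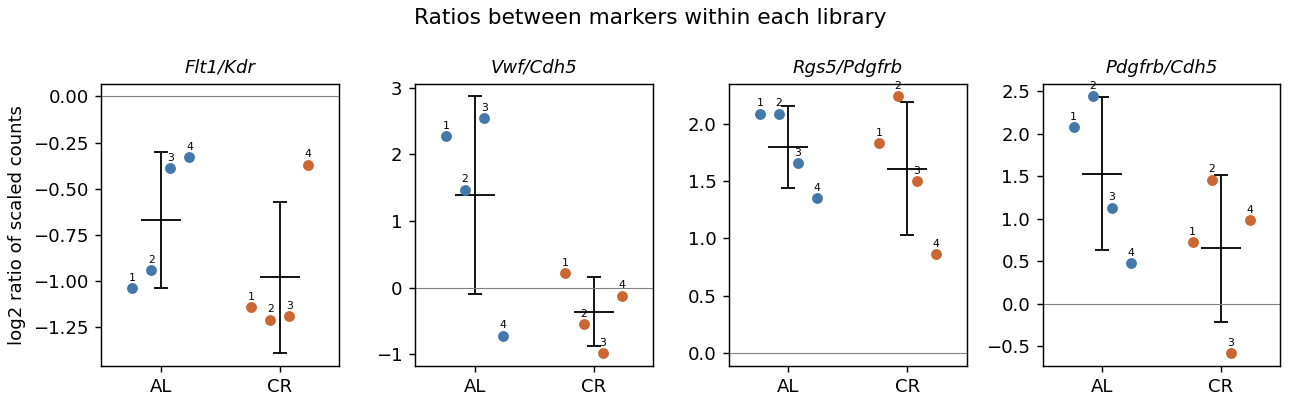
Log2 ratio of scaled counts, with 0.5 added to each, for 4 pairs of markers in the 4 AL and 4 CR libraries. Points are libraries with their replicate number, lines and bars are the mean and SD, and the groups overlap in each ratio.

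From mouse to mouse, correlations between the markers had both signs. After the diet means were removed, 17 of the 45 pairs of markers correlated positively over the 8 libraries, with a median Pearson's r of -0.10. The values ran from -0.78 for Egfl7 with Pdgfrb to 0.65 for Cdh5 with Tek. All pairs share the libraries and their depth, and many of the counts are low. Of 6386 other genes with a mean of at least 5 CPM, the ones most like the mean of the markers within the diets were Camk2n1 (r = 0.956), Pkd1 (r = 0.955), Ptpn6 (r = 0.944), Plxdc2 (r = 0.942) and Ddx56 (r = 0.941). These are the highest of many values over 8 libraries and are given as a description.

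A further 111 genes of the vessel wall in 11 lists showed no called change. Of 109 in the table, 71 were tested, and 34 had a positive and 37 a negative log2 fold change, with a median of -0.09. Before adjustment, 8 were higher and 9 were lower with a p under 0.05, beside 8.62% and 8.10% of all genes. The same shares stand beside the counts of the single lists below. Groups did not overlap for 3 that were higher and 2 that were lower, beside 4.58% and 5.20% of all genes.

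Among 17 tested genes of endothelial identity, the p before adjustment was under 0.05 for 1 higher and 1 lower gene, and the median log2 fold change was 0.09. Gpihbp1, which carries lipoprotein lipase to the capillary lumen, was at 0.256 ± 0.366 CPM in AL and 1.07 ± 0.576 CPM in CR, with a log2 fold change of 2.02 from 0 to 26 counts per library (adjusted p = 0.294 by edgeR), and without AL 2 it was 3.83 (adjusted p = 0.121). Cd34, a sialomucin that vessels share with fibroblasts, was at 11.5 ± 4.73 CPM in AL and 6.48 ± 2 CPM in CR, with a log2 fold change of -0.83 (adjusted p = 0.205). Both had groups that overlapped. Mmrn2, an extracellular matrix protein of endothelium, had a log2 fold change of 0.78 (adjusted p = 0.457).

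Among 11 tested endothelial transcription factors, 1 had a p under 0.05 before adjustment in each direction. Foxo1, a forkhead factor that holds endothelium quiescent and acts in many other cells, was at 16.6 ± 1.25 CPM in AL and 26.8 ± 11.0 CPM in CR (log2 fold change 0.69, adjusted p = 0.196 by edgeR). CR 4, at 14.8 CPM, was the lowest of all libraries for Foxo1, and without it the gene was called (log2 fold change 0.89, adjusted p = 0.0244). CR 3, at 41.4 CPM, was the highest. With each library left out in turn, the log2 fold change of Foxo1 ran from 0.41 to 0.89. Elk3, an ETS factor, was at 2.57 ± 0.97 CPM in AL and 1.10 ± 0.399 CPM in CR (log2 fold change -1.22, adjusted p = 0.179). Klf2, a factor that blood flow induces, had a log2 fold change of 0.55 (adjusted p = 0.421).

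The ligands of the receptors above were given by the VEGF, angiopoietin and PDGF lists. Of 6 tested VEGF ligands and other receptors, 0 passed an unadjusted p of 0.05. Vegfb was at 9.36 ± 2.90 CPM in AL and 14.8 ± 5.91 CPM in CR, with a log2 fold change of 0.66 (adjusted p = 0.311 by edgeR). Nrp1, the VEGF co-receptor, was at 14.0 ± 4.53 and 10.6 ± 3.82 CPM (log2 fold change -0.40, adjusted p = 0.555). Between libraries of the same replicate number, Vegfb was higher and Nrp1 lower in CR in all 4 pairs. With that number as a block, the p before adjustment was 0.00994 for Vegfb (adjusted p = 0.092 by edgeR) and 0.0498 for Nrp1 (adjusted p = 0.231), and for Vegfb it was 0.0488 by DESeq2 and 0.0275 by limma voom. Pgf, the placental growth factor that binds VEGFR1, had a log2 fold change of -0.60 (adjusted p = 0.629).

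Angpt2, the Tie2 ligand that antagonises Angpt1 in resting vessels, was at 2.08, 0.981, 1.68 and 0.761 CPM in AL 1 to AL 4, and at 0.354, 0.651, 0.557 and 0.555 CPM in CR 1 to CR 4. All 4 CR libraries were below all 4 AL libraries. Angpt2 had a log2 fold change of -1.35 with SE 0.519, which did not pass the correction (unadjusted p = 0.023, adjusted p = 0.204 by edgeR). Under the replicate block it was -1.26 (unadjusted p = 0.0584, adjusted p = 0.252). Angpt1, the activating ligand that mural cells make, had a log2 fold change of -0.85 (adjusted p = 0.405). Angptl4, a related inhibitor of lipoprotein lipase that adipocytes make as well, was at 1.65 ± 1.26 CPM in AL and 8.24 ± 8.68 CPM in CR, with CR 3 at 20.1 and CR 4 at 1.11 CPM. Its adjusted p was 0.153 by edgeR, and its log2 fold change was 2.34. Without CR 4 it was called (log2 fold change 2.72, adjusted p = 0.0301), and the value was 1.40 without CR 3 (adjusted p = 0.459) and 2.93 without AL 3 (adjusted p = 0.162).

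Pdgfa, a PDGF ligand that epithelium makes for fibroblasts, was at 12.8, 10.2, 12.5 and 10.5 CPM in AL 1 to AL 4, and at 21.7, 16.6, 21.1 and 14.8 CPM in CR 1 to CR 4. The groups did not overlap. The log2 fold change was 0.69 with SE 0.191 (adjusted p = 0.0908 by edgeR). With the replicate number as a block it was 0.67 and the gene was called (adjusted p = 0.0307), as it was by DESeq2 (adjusted p = 0.0366), by limma voom (0.0391) and without CR 4 (0.0345). Pdgfb, the ligand that endothelium makes for pericytes, was counted too rarely to be tested, with at most 16 counts per library. Of the other PDGF genes, the receptor gene Pdgfra had a log2 fold change of -0.65 (adjusted p = 0.537) and the ligand gene Pdgfc 0.04 (adjusted p = 0.98).

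Of 8 tested genes of pericytes and vascular smooth muscle, 3 were lower at an unadjusted p under 0.05 and 0 higher by edgeR, beside 8.10% and 8.62% of all genes. The 3 lower genes were the contractile genes Acta2, Myh11 and Cnn1. Of the 8, 5 had a negative and 3 a positive log2 fold change, and the positive ones were Abcc9 (0.52), Kcnj8 (1.70) and Notch3 (0.47). Cnn1, the smooth muscle calponin, was at 8.40 ± 2.68 CPM in AL and 4.29 ± 2.23 CPM in CR (log2 fold change -0.97, adjusted p = 0.187 by edgeR). Tagln, an actin-binding protein of smooth muscle, had a log2 fold change of -0.83 (adjusted p = 0.354). Kcnj8, a potassium channel subunit of pericytes, had 1.70 (adjusted p = 0.4), from 0 to 31 counts, and without AL 2 it had 3.87 (unadjusted p = 0.00195, adjusted p = 0.104 by edgeR). Kcnj8 had, under the replicate block, 2.24 and its unadjusted p of 0.0416 was under 0.05 (adjusted p = 0.21). Contractile genes are shared with the myoepithelial cells of the gland, whose part was not tested.

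Of 4 tested arterial genes, 2 were higher at an unadjusted p under 0.05, beside 8.62% of all genes. Bmx, a kinase of arterial endothelium, was at 0.888 ± 0.615 CPM in AL and 2.60 ± 0.798 CPM in CR, without overlap (log2 fold change 1.51, adjusted p = 0.179 by edgeR). Efnb2, the arterial ephrin, was at 0.715 ± 0.372 and 1.80 ± 0.886 CPM (log2 fold change 1.34, adjusted p = 0.234). Jag1, a Notch ligand, had a log2 fold change of 0.73 (adjusted p = 0.427). Of 5 venous genes 1 was higher at that threshold, Lrg1, a secreted glycoprotein gene named after its values were seen (log2 fold change 0.49, adjusted p = 0.224). Ackr1, the chemokine-binding receptor of venules, was at 1.16 ± 0.547 CPM in AL and 0.573 ± 0.24 CPM in CR, with 3 CR libraries below every AL library (log2 fold change -0.99, adjusted p = 0.403). The venous receptor gene Ephb4 had a log2 fold change of 0.56 (adjusted p = 0.775).

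Of 3 tested lymphatic and high endothelial venule genes, Reln was lower at an unadjusted p under 0.05, at 8.47 ± 2.29 CPM in AL and 5.61 ± 0.781 CPM in CR (log2 fold change -0.59, adjusted p = 0.253 by edgeR). Pdpn, a lymphatic membrane glycoprotein that fibroblasts and epithelium also carry, had a log2 fold change of -1.12 (adjusted p = 0.344), and Lyve1, the hyaluronan receptor of lymphatic endothelium and some macrophages, had -0.66 (adjusted p = 0.639), or -1.42 without CR 3 (adjusted p = 0.292). Of 6 genes through which endothelium binds leukocytes, 0 passed an unadjusted p of 0.05, and Vcam1 had a log2 fold change of -0.58 (adjusted p = 0.584), Jam2 of 0.74 (adjusted p = 0.661) and Icam2 of -0.57 (adjusted p = 0.779). Without AL 3 that of Icam2 was 0.06. Another 38 vascular genes were counted too rarely for the model, and 19 of them had at most 10 counts in any library. Of these 38, 1 had an exact permutation p under 0.05, and it was named after its values were seen. Glycam1, a ligand for L-selectin made by high endothelial venules, was at 0.539, 1.59, 1.97 and 0.558 CPM in AL 1 to AL 4, and at 0, 0, 0 and 0.0555 CPM in CR 1 to CR 4. All the AL libraries were above all the CR libraries, and the p of 0.0286 (exact, two-sided) became 0.995 after adjustment over the 38 genes, among which a single gene could not have passed, since 4 against 4 allow no smaller p.

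**Figure D4:**
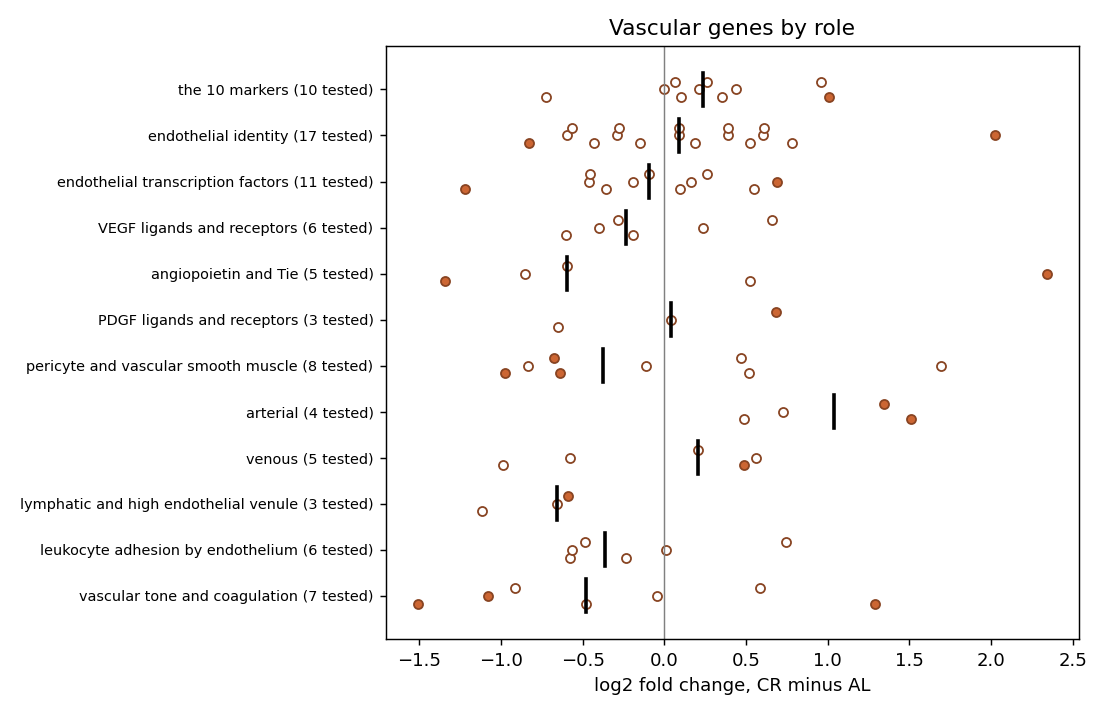
Log2 fold change, CR minus AL, of each tested gene of the 10 markers and of 11 vascular lists. Filled points have an unadjusted p under 0.05 by edgeR, open points do not, and the black bar is the median of the list, at 0.24 for the 10 markers; 0 of the genes shown were called.

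In the list of vascular tone and coagulation, the p before adjustment was under 0.05 for 1 higher and 2 lower genes of 7 tested. Ace, the angiotensin-converting enzyme of the endothelial surface, was at 2.85, 5.70, 2.19 and 5.43 CPM in AL 1 to AL 4, and at 7.36, 10.7, 8.73 and 13.1 CPM in CR 1 to CR 4. All 4 CR libraries were above all 4 AL libraries. Ace had a log2 fold change of 1.29 with SE 0.327, just outside the threshold (adjusted p = 0.0666 by edgeR). With the replicate number as a block it was 1.36 and the gene was called (adjusted p = 0.00672), as it was by DESeq2 (adjusted p = 0.00797) and without the filter on low counts (0.0313).

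Edn1, the vasoconstrictor endothelin, was at 3.08, 5.34, 4.23 and 5.83 CPM in AL 1 to AL 4, and at 1.49, 2.78, 2.29 and 2.17 CPM in CR 1 to CR 4. The groups did not overlap, and CR was lower. Edn1 had a log2 fold change of -1.08 with SE 0.324 (adjusted p = 0.112 by edgeR), and DESeq2 called the gene (adjusted p = 0.0366). Thbd, the thrombin receptor thrombomodulin, was at 3.39, 5.34, 4.96 and 7.26 CPM in AL 1 to AL 4, and at 0.990, 1.36, 0.433 and 4.50 CPM in CR 1 to CR 4. CR 4 lay within the AL range, and the other CR libraries were below it. Thbd had a log2 fold change of -1.51 with SE 0.56 (adjusted p = 0.191 by edgeR). With the replicate number as a block it was -1.84 (adjusted p = 0.0221), by limma voom the adjusted p was 0.0391, and without CR 4 the value was -2.49 (adjusted p = 0.00664). Epithelial cells can also make Ace, Edn1 and Thbd, and their part in these values was not tested.

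Markers of several other cell types were called in the same libraries. The 14 leukocyte markers summed to 85.4 to 274 CPM in AL and 45.8 to 78.0 CPM in CR, and of 7 tested, 1 (Lyz2) was called lower and 0 higher. The pan-leukocyte gene Ptprc was at 19.0 ± 13.7 CPM in AL and 5.99 ± 2.24 CPM in CR (log2 fold change -1.66, adjusted p = 0.0635 by edgeR), and with the replicate number as a block it was called (log2 fold change -1.50, adjusted p = 0.0215), as it was by DESeq2 (0.0031), without the filter on low counts (0.0174) and without AL 4 (0.0497), while without AL 3 it was -1.03 (adjusted p = 0.132). The 9 fibroblast markers summed to 175 to 297 CPM in AL and 147 to 212 CPM in CR, with Col1a1 and Col3a1 called lower. Of these 9, 7 had a negative and 2 a positive log2 fold change. The positive ones were Lox (0.90, adjusted p = 0.488 by edgeR) and Dcn (0.22, adjusted p = 0.663). Dcn was at 109 ± 18.6 CPM in AL and 127 ± 29 CPM in CR. The 7 adipocyte markers summed to 5.90 to 13.7 CPM in AL and 26.4 to 73.6 CPM in CR, with Car3 and Fabp4 called higher. The 6 epithelial markers summed to 217 to 256 CPM in AL and 248 to 352 CPM in CR, and 0 were called, although Krt18 was with the replicate number as a block (adjusted p = 0.0296), by DESeq2 (0.0318), by limma voom (0.0281) and without CR 4 (0.0413). Of the parotid transcripts, Prb1, Prh1 and Prp2 were called higher. Some of these calls were lost when a library was left out. They kept their direction, with log2 fold changes over the 8 leave-outs from -1.73 to -1.28 for Lyz2, 2.15 to 2.79 for Fabp4, 4.6 to 7.08 for Prb1 and 8.10 to 11.64 for Prh1. Prp2 kept its call in all 8, with 7.90 without CR 2 as the lowest and 12.53 without AL 1 as the highest value. Lyz2 lost its call without AL 2, AL 3, AL 4, CR 1, CR 2 or CR 3 (adjusted p from 0.0619 to 0.116 by edgeR), Fabp4 without AL 1, AL 2, AL 3, CR 2 or CR 3 (0.0603 to 0.0885), Prb1 without any library but AL 4 and CR 4 (0.055 to 0.117) and Prh1 without AL 2 or AL 3 (0.0676 and 0.0692). By limma voom, Prp2 (log2 fold change 10.36, adjusted p = 0.147) and Prh1 (12.46, adjusted p = 0.0698) lost theirs, with folds larger than by edgeR (9.85 and 9.72). When the parotid score entered the model, the calls of Lyz2, Col1a1, Col3a1, Car3, Fabp4, Prb1, Prh1 and Prp2 were all lost (adjusted p from 0.214 for Col3a1 to 0.893 for Prb1). The log2 fold change was then -2.50 for Col3a1, 3.30 for Car3 and 3.24 for Fabp4, against -2.79, 2.83 and 2.37 without the score, while that of Lyz2 was -0.25 against -1.48. Prb1, Prh1 and Prp2 are themselves among the transcripts of the score. The part of these cells in the values of the vascular genes was not tested.

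**Figure D5:**
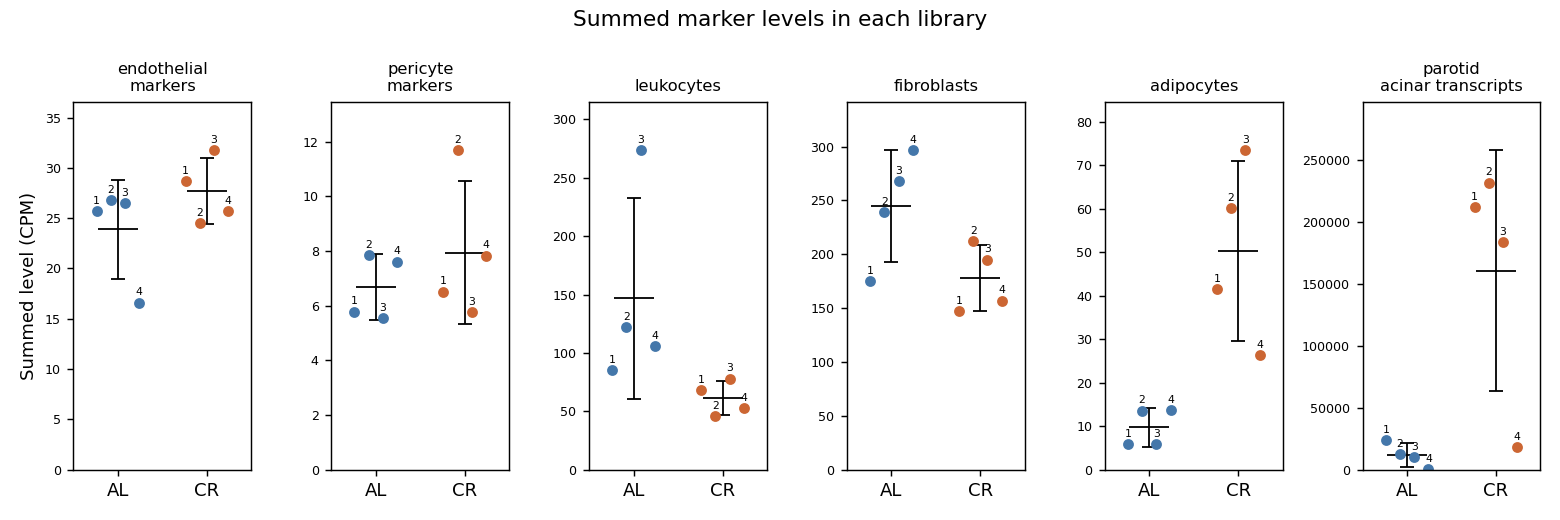
Summed level in CPM, on axes that start at 0, of the 8 endothelial and 2 pericyte markers and of the marker lists of 4 other cell types in the 4 AL and 4 CR libraries. Points are libraries with their replicate number, and lines and bars are the mean and SD. The endothelial and pericyte sums overlap between diets, and the leukocyte and adipocyte sums do not. CR 4, at 18000 CPM, is the CR library within the AL range of the parotid sum, most of which is Bpifa2 and Amy1.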

How the data were processed

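RNA of whole LGs from 4 AL and 4 CR mice was sequenced from the 3′ end with 75-base reads. The authors deposited a table of counts per gene. The reads were trimmed with cutadapt, aligned to mm10 with STAR and counted with HTSeq, per the labels and the study's methods, and FastQC and DESeq2 were also named; versions are not given in the sources used here. The log2 values that the authors made from the counts were not used.

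After 5 repeated symbols were dropped, 24552 genes remained, and 11211 passed filterByExpr of edgeR 4.0.16 (R 4.3.3). CR was compared with AL over all of these by quasi-likelihood F tests with RLE factors and Benjamini-Hochberg adjustment, and calls needed an adjusted p under 0.05 together with a 1.5-fold change or more. SEs are Wald SEs with the quasi-likelihood variance. Ratios and rarely counted genes were compared by exact two-sided permutation tests, for which the smallest p is 0.0286. The pipeline was tested on simulated data.

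All 10 markers are named, with each called gene of the lists and the 3 of largest change in each vascular list or the 1 in each list of other cells. Further genes of the lists were named with their values known. The members, lists and rules were chosen with earlier results of these data known. Promoters come from RefSeq and positions from GENCODE vM21. The alternatives tried were DESeq2 1.42.0, limma 3.58.1 voom weighted by sample quality, TMM and upper-quartile factors, other filters and thresholds, the parotid score as a covariate, a block for the replicate number and leaving out each library.

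Replicate numbers occur in both diets, and no label says what they share. After the diet means were removed, same-numbered libraries correlated over 11211 genes with r = 0.208, 0.114, 0.298 and 0.535 for numbers 1 to 4, all over 0.1, although AL 3 correlated best with CR 1 (r = 0.408). The pairing therefore comes from the data alone, and blocked values stand beside the results that they change.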

Additional observations from a re-analysis of the deposited data

Results flagged for a closer look

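In 11 of 132 groups of 4 values, the highest or lowest library lay farther from the others, relative to the range, than Dixon's 95% limit allows, and chance gives about 1 in 20. Among the markers, Rgs5 was at 9.65 CPM in CR 2, and the other CR libraries were between 4.27 and 5.09 CPM. The summed level of the endothelial markers was 16.6 CPM in AL 4, below the 25.7 to 26.8 CPM of the other AL libraries. The log2 ratio of Flt1 to Kdr was -0.37 in CR 4, above the -1.21 to -1.14 of the other CR libraries.

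Among the other vascular genes, the pericyte channel gene Kcnj8 was at 1.04 CPM in AL 2 and between 0 and 0.101 CPM in the other AL libraries. Jam2, a junctional adhesion molecule, was at 0.444 CPM in CR 4 and between 2.41 and 2.61 CPM in the other CR libraries.

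Among markers of other cells, Ptprc was at 39.5 CPM in AL 3 (others 10.7 to 13.8 CPM). In CR 4, Lyz2 was at 9.50 CPM (others 5.16 to 5.76 CPM) and Itga2b at 13.9 CPM (others 4.83 to 6.22 CPM), and without that library Itga2b was called lower (log2 fold change -1.03, adjusted p = 0.0202 by edgeR). Col3a1 was at 7.00 CPM in CR 1 (others 4.61 to 4.83 CPM). The parotid transcript Prp2 was at 1.23 CPM in AL 1 (others 0 to 0.146 CPM) and at 922 CPM in CR 2 (others 20.7 to 138 CPM).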

How the results depend on the processing

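No marker was called under the alternatives in which it could be fitted. Tek could not be fitted without AL 2, AL 4, CR 2 or CR 4, and Cdh5, Tek and Vwf could not with at least 10 counts in every library. Of 153 alternative values of the markers, 136 kept their direction and 17 reversed. Tek had a log2 fold change of 0.00 with TMM factors and without the filter on low counts, -0.03 with upper-quartile factors, -0.01 by DESeq2, -0.69 by limma voom and -0.58 with the replicate block, and Flt1 had -0.11 by limma voom. With the parotid score as a covariate, Pecam1 had -0.10, Kdr -0.23, Egfl7 -1.08, Rgs5 -0.31, Gpihbp1 -0.09, Vegfb -0.19, Nrp1 0.59, Pdgfra 0.10, Pdgfc -0.17, Efnb2 -0.46, Vcam1 0.45, Thbd 0.07 and Prb1 -0.38. Without reversing, the same covariate moved other values by over 1.5-fold, to 3.91 for Cdh5, 1.18 for Tek, 0.01 for Emcn, 1.27 for Pdgfrb, -2 for Cd34, 1.78 for Mmrn2, -0.17 for Elk3, 1.20 for Klf2, 1.27 for Angptl4, -2.32 for Angpt2, -2.27 for Angpt1, -1.62 for Tagln, 3.30 for Bmx, -2 for Icam2, 2.08 for Ace, -2.62 for Ptprc, -0.25 for Lyz2, -1.75 for Col1a1, 3.24 for Fabp4, 3.49 for Prp2 and 2.60 for Prh1. With the replicate block Pdgfc had -0.13. When each library was left out in turn, values ranged from -1.32 to 0.41 for Tek over the 4 that could be fitted, -0.17 to 0.19 for Flt1, -0.97 to 0.01 for Vwf, -0.16 to 0.29 for Egfl7, -0.11 to 0.35 for Rgs5, -0.50 to 0.27 for Pdgfc and -0.91 to 0.06 for Icam2, and the log2 ratio of Rgs5 to Pdgfrb differed by -0.40 to 0.06.

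Over all genes, 702 were called by DESeq2, 397 by limma voom, 436 without the filter, 700 with the replicate block, 4 with the parotid score and 61 to 700 when a library was left out. The lowest count was without AL 2 and the highest without CR 4, and the causes were not tested. Among the genes named by rule, the replicate block changed the call of no others than those given with it. Apart from Emcn, the interval of each marker held 0.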
